A study of Mus musculus with 10 samples.

Results

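The genes of matrix cleavage and crosslinking were examined in mammary gland RNA: every protein-coding mouse gene whose symbol places it in the matrix metalloproteinase (*Mmp*), tissue inhibitor of metalloproteinase (*Timp*), *Adamts* or lysyl oxidase (*Lox*, *Loxl*) families. The rule used names only and no measured value. It found 50 genes among the 46983 that were counted: 22 *Mmp*, 4 *Timp*, 19 *Adamts* and 5 *Lox* genes. Of these, 40 had enough reads to be tested (14, 4, 17 and 5 per family), among 15610 tested genes in all.

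Libraries came from the right thoracic mammary fat pads of virgin female C57BL/6 mice, a common inbred laboratory strain. The control group (CFA) ate a diet with 1 mg folic acid (FA)/kg and the other group (HFA) a diet with 5 mg FA/kg, both for 4 weeks. All mice then ate the same AIN93M maintenance diet for 4 weeks and were fasted before tissue was taken at postnatal day 130. There were 5 libraries per group, 1 per mouse, called CFA 1 to CFA 5 and HFA 1 to HFA 5 here in the order of their labels. The sample titles carry a second digit that is 2 for CFA 1, CFA 2, HFA 1, HFA 2 and HFA 3, and 3 for CFA 3, CFA 4, CFA 5, HFA 4 and HFA 5. Neither the labels nor the study state what this digit stands for, and it is called the title digit below. The fat pad was taken whole, so each library mixes the RNA of many cell types, and fewer cells of a type cannot be told apart from less RNA per cell.

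The metalloproteinases are zinc enzymes that are made as inactive precursors and, once active, cut collagens, proteoglycans and other matrix proteins. The TIMP proteins bind in the active site of these enzymes and block them. ADAMTS enzymes are secreted relatives that trim procollagens, cut large proteoglycans such as versican and aggrecan, or associate with fibrillin microfibrils. Lysyl oxidases act in the other direction: they oxidise lysines of collagen and elastin, which starts the crosslinks of the fibres. In the mammary gland these families are known for the remodelling of stroma during ductal branching and during involution after lactation.

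Libraries held 7672199 to 14829291 reads on genes, and the 50 genes took 0.0722% (HFA 4) to 0.242% (HFA 2) of them. In 3 libraries the share was under 0.1%: 0.0946% in CFA 5, 0.0722% in HFA 4 and 0.0746% in HFA 5. The tissue held adipocyte markers in every library (8 of 8 tested, summed level 10100 to 17200 CPM, read counts scaled to a common library total) and luminal epithelial markers too (8 of 8 tested, 413 to 2470 CPM). Skeletal muscle markers (7 of 7 tested) summed to 6700 to 54100 CPM in 9 libraries and to 705 CPM in HFA 5. B cell markers (3 of 6 tested) summed to 302 CPM in CFA 2, 800 in CFA 5 and 2380 in HFA 5, and to at most 4.67 CPM in the other 7 libraries. Fibroblast markers (8 of 8 tested) summed to 2100 CPM in CFA 5, 1200 in HFA 4 and 808 in HFA 5, against 4160 to 8390 CPM in the other 7 libraries. The fitted comparisons below are also given without some of these libraries, and the counts of lowest libraries and the ratios of sums only with them.

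Levels of different genes are compared per kilobase of exon (CPM divided by exon length in kb, RPKM). *Timp2*, which blocks metalloproteinases and also helps *Mmp14* to activate *Mmp2*, stood first of the 50 genes with a mean of 79.4 ± 37.8 RPKM (SD, n = 10). *Mmp2*, the gelatinase that cuts denatured collagen and basement membrane collagen, followed with 47.0 ± 26.2 RPKM. *Mmp3*, a stromelysin with many matrix substrates, had 25.3 ± 17.0 RPKM and *Timp3*, the inhibitor that stays bound to the matrix, 21.6 ± 9.62 RPKM. These means differ by less than the spread between libraries from *Mmp3* to *Timp3* and on to *Loxl1* (18.3 ± 8.53 RPKM), *Mmp14* (18.2 ± 7.46 RPKM) and *Mmp15* (16.4 ± 6.01 RPKM). *Loxl1*, needed for elastic fibres, was first among the lysyl oxidases. *Mmp14* and *Mmp15* encode enzymes held in the cell membrane.

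Below them, *Adamts1* (8.73 ± 2.97 RPKM), a proteoglycan-cutting enzyme, and *Adamts2* (8.0 ± 4.68 RPKM), which removes the amino propeptide of procollagen, led the *Adamts* family, and their ranges overlapped. *Lox* had 7.56 ± 3.12 RPKM, *Loxl2* 6.12 ± 2.86 RPKM, *Loxl3* 2.76 ± 0.994 RPKM and *Loxl4* 0.695 ± 0.405 RPKM. *Timp4* (4.11 ± 0.974 RPKM) and *Timp1* (3.42 ± 2.0 RPKM) stood far below *Timp2* in every library, since the lowest *Timp2* value was 37.2 RPKM and the highest *Timp1* value 6.92 RPKM. With the longest transcript in place of all exons as the length, *Timp2* and *Mmp2* stayed first and second, but *Timp3* (37.2 RPKM) and *Mmp14* (33.4 RPKM) came before *Mmp3* (25.3 RPKM), and *Adamts2* (10.3 RPKM) before *Adamts1* (9.48 RPKM).

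**Figure D1:**
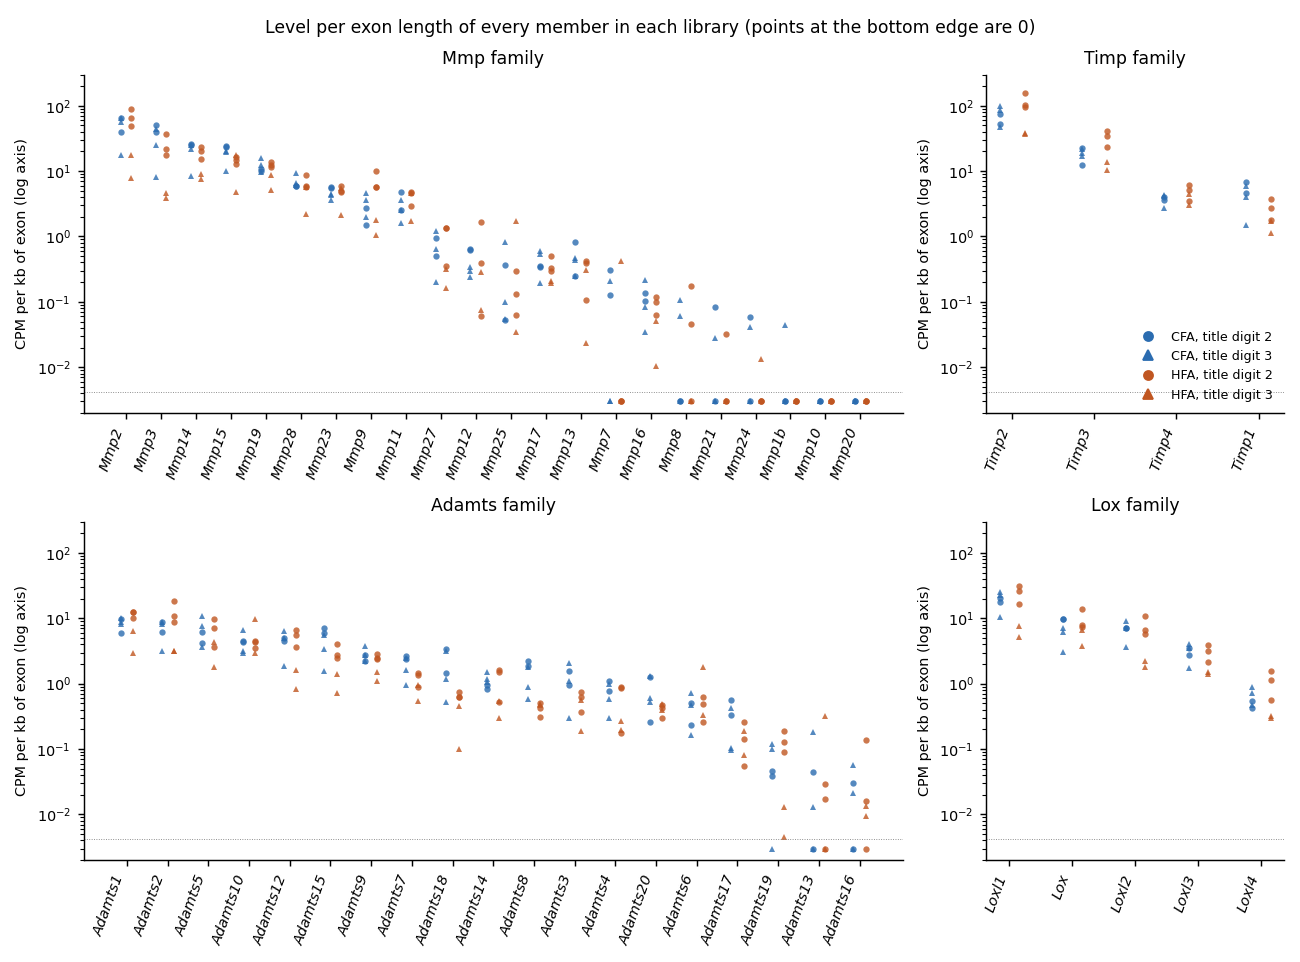
Each point is a library, placed by gene and by its level as CPM per kb of exon on a log axis, with CFA in blue, HFA in orange, circles for title digit 2 and triangles for 3; points at the bottom edge are 0. *Timp2* (mean 79.4) and *Mmp2* (47.0) lie highest, and *Mmp10* and *Mmp20* lie at 0 in every library.

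The *Mmp* family holds a row of neighbours on chromosome 9. In GRCm38, 9 members (*Mmp13*, *Mmp12*, *Mmp1b*, *Mmp3*, *Mmp10*, *Mmp8*, *Mmp27*, *Mmp20* and *Mmp7*, in this order) lie between 7272514 and 7699585, a stretch of 427 kb. Only *Mmp3* among them was abundant. *Mmp27* had a mean of 0.700 ± 0.468 RPKM, *Mmp12*, the macrophage elastase, 0.462 ± 0.462 RPKM and *Mmp13*, a collagenase, 0.345 ± 0.220 RPKM. The other 5 did not pass the filter on low counts, and *Mmp10*, a stromelysin like *Mmp3*, had 0 reads in all 10 libraries. Members are neighbours in 2 other places: *Adamts15* and *Adamts8* on chromosome 9, 20109 bp apart, and *Adamts1* and *Adamts5* on chromosome 16, 53059 bp apart.

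The RefSeq promoter table (GRCm38.p6) held 32 of the 50 genes, each with 250 bases before to 50 bases after the start. The AP-1 motif, the site named for the Fos and Jun factors, was searched as TGAGTCA or TGACTCA, which are each other's reverse complement. It was in 5.2% of all 32851 windows and in those of 6 members, *Mmp3*, *Mmp7*, *Mmp10*, *Mmp12*, *Mmp13* and *Mmp1b*, all from the chromosome 9 cluster. The same 6 also held TATAAA on the strand of the gene, and both motifs together were in 0.62% of all windows. TATAAA, with or without the AP-1 motif, was in 8.32% of all windows and in those of 9 members. The others were *Mmp20*, *Mmp21* and *Adamts1*. The bases of 4 of them are shown, because these promoters share both motifs while *Mmp3* had 25.3 RPKM and *Mmp10* none. Each runs 5′ to 3′ over 120 bases and ends just before the annotated start, with the AP-1 motif and TATAAA in capitals.
Mmp3 (chr9:7445702-7445821, + strand): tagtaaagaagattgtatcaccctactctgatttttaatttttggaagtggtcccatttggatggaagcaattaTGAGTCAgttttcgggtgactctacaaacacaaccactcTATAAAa
Mmp10 (chr9:7502222-7502341, + strand): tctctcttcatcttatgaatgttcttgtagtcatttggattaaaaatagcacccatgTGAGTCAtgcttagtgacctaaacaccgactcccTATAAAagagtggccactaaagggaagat
Mmp13 (chr9:7272394-7272513, + strand): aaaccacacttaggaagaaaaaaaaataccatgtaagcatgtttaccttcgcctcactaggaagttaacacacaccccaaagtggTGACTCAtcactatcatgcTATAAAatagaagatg
Mmp7 (chr9:7691970-7692089, + strand): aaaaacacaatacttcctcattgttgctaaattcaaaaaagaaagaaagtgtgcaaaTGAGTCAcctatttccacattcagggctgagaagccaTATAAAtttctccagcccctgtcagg

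The GC box, searched as GGGCGG or CCGCCC for both strands and with overlapping matches allowed, was in 35.66% of all windows and in those of 19 members. No member window held both the AP-1 motif and a GC box. The promoters of 4 members from the other families or from outside the cluster are shown for contrast, with GC boxes in capitals. TATAAA is left in small letters there, and the bases of *Adamts1* hold it. The bases before *Mmp14* have a GC content of 54.2% and those before *Loxl4* 82.5%, against 35.8% before *Mmp3*. A match of letters is a description of the sequence and not evidence of a bound factor.
Mmp14 (chr14:54431478-54431597, + strand): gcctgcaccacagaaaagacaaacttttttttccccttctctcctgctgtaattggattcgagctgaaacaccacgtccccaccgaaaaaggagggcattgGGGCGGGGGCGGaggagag
Adamts2 (chr11:50601964-50602083, + strand): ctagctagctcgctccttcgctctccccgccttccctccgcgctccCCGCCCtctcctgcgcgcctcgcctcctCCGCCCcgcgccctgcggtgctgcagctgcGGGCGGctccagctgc
Adamts1 (chr16:85803114-85803233, - strand): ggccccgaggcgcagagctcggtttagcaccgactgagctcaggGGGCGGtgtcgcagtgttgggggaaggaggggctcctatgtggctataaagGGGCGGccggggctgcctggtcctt
Loxl4 (chr19:42612814-42612933, - strand): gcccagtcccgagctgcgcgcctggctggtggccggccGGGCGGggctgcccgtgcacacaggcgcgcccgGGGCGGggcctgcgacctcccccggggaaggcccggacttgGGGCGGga

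The members varied more between libraries than most genes. The SD of log2 CPM over the 10 libraries had a median of 0.811 over the 40 tested members, against 0.387 over all tested genes. Within CFA the medians were 0.628 and 0.271, and within HFA 0.868 and 0.437. Without CFA 2, CFA 5 and HFA 5 they were 0.706 and 0.286, and with any single library left out the median of the members was 0.676 (without HFA 5) to 0.843. The *Adamts* family had the highest family median (0.929) and the *Timp* family the lowest (0.659).

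Within each diet, most members were lowest in the same library. Among the CFA libraries, CFA 5 was the lowest for 29 of the 40 members (29.8% of all tested genes were lowest there). Among the HFA libraries, HFA 5 was the lowest for 27 (38.4% of all tested genes), while HFA 4 was the lowest for 7, a share near that of all tested genes (19.0%). Over all 10 libraries, HFA 2 was the highest for 13 members (9.83% of all tested genes).

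**Figure D2:**
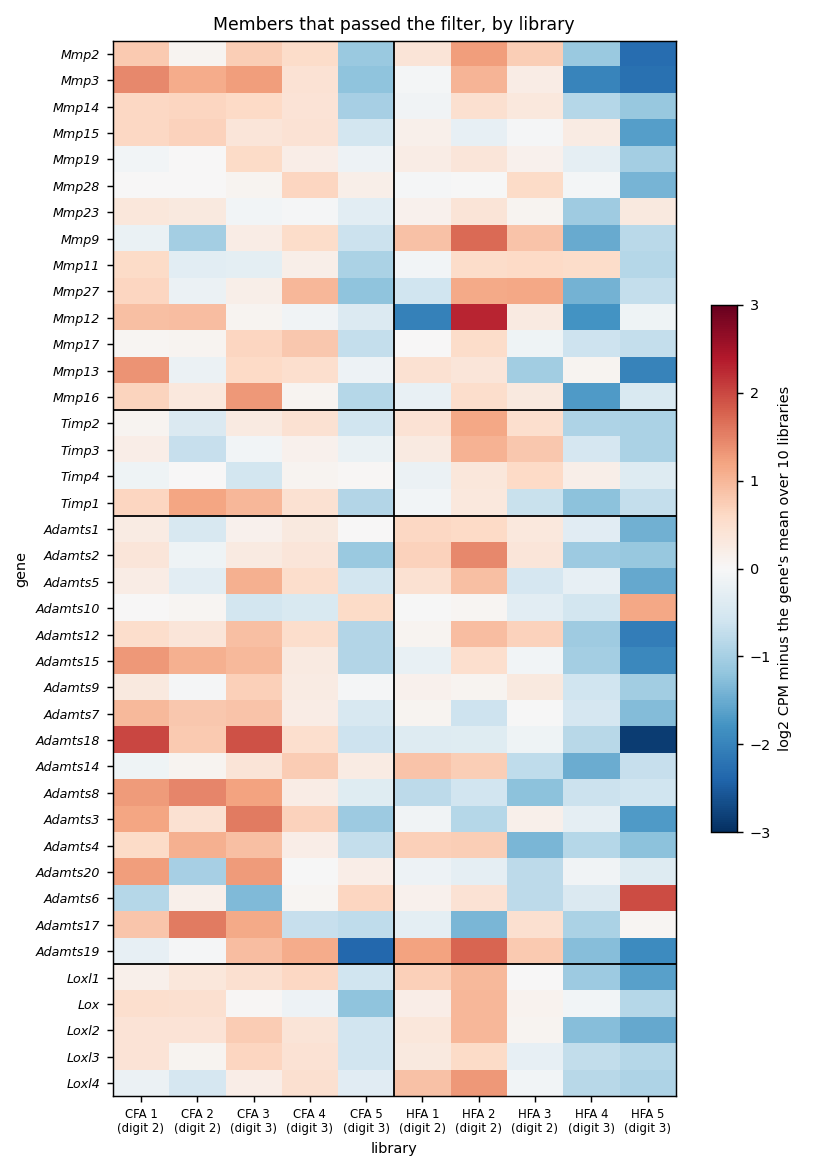
Rows are the 40 tested members by family, columns the 10 libraries, and colour is log2 CPM minus the mean of the gene over the libraries. CFA 5, HFA 4 and HFA 5 are mostly blue (low), while *Adamts10* and *Adamts6* are highest in HFA 5.

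Summed by family, CFA 5, HFA 4 and HFA 5 had low values. The *Mmp* genes summed to 267 CPM in CFA 5 while CFA 1 to CFA 4 had 590 to 693 CPM, and to 296 and 169 CPM in HFA 4 and HFA 5 against 492 to 734 CPM in the other HFA libraries. The *Lox* genes summed to 79.0 CPM in CFA 5, 76.4 in HFA 4 and 53.0 in HFA 5, against 133 to 253 CPM in the other 7. The *Timp* sum was 289 and 248 CPM in HFA 4 and HFA 5 and 596 to 983 CPM in the other HFA libraries, and in CFA it ran from 339 CPM in CFA 2 to 592 CPM in CFA 4. The fibroblast markers were lowest in the same 3 libraries, and B cell markers were high in CFA 5 and HFA 5 but not in HFA 4. Fibroblast markers were not alone in this. In CFA 5, HFA 4 and HFA 5, basal epithelial markers summed to 426, 468 and 160 CPM and mast cell markers to 158, 177 and 147 CPM. Elsewhere these sums were at least 892 and 248 CPM. Luminal epithelial markers were low in CFA 5 and HFA 5 (634 and 413 CPM) but not in HFA 4 (1690 CPM).

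**Figure D3:**
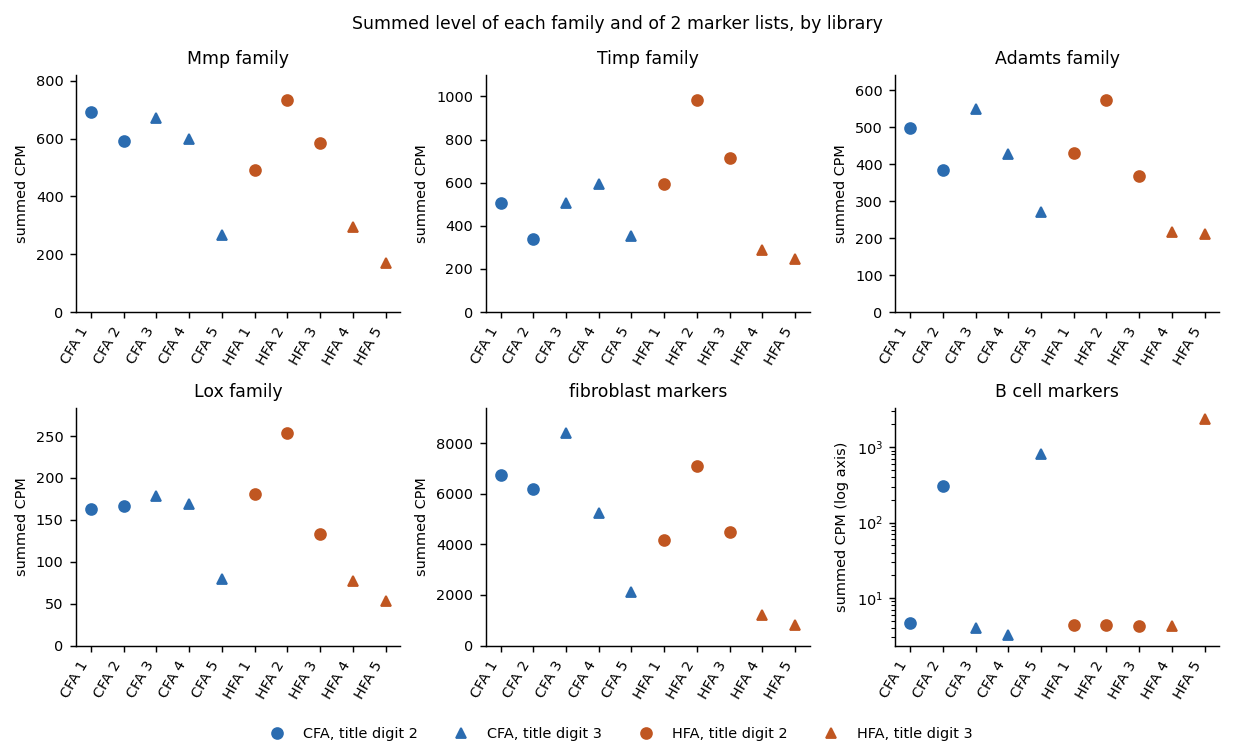
Each panel gives the summed CPM of a family or of a marker list in each library, on a linear axis from 0 except for the B cell markers, which have a log axis. CFA 5, HFA 4 and HFA 5 are the lowest 3 libraries for the *Mmp*, *Adamts* and *Lox* sums and for the fibroblast markers, and B cell markers reach 2380 CPM in HFA 5.

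The ratio of the *Mmp* sum to the *Timp* sum was 1.38, 1.74, 1.32, 1.01 and 0.761 in CFA 1 to CFA 5 and 0.825, 0.746, 0.817, 1.02 and 0.680 in HFA 1 to HFA 5. The mean was 1.24 ± 0.374 in CFA and 0.818 ± 0.128 in HFA (SD, n = 5 each), with overlapping ranges. The ratio of *Mmp2* to *Timp2* CPM ran from 0.320 to 0.745 in CFA and from 0.181 to 0.540 in HFA, which overlap as well.

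HFA was compared with CFA to ask whether these genes differ 4 weeks after the supplementation ended. No member differed between the diets at an adjusted p under 0.05 by the quasi-likelihood test of edgeR (0 of 40; 0.0% of all tested genes), and the smallest adjusted p of a member was 0.577. At an unadjusted p under 0.05 there were 6 of 40 members (7.36% of all tested genes), all lower in HFA (3.49% of all tested genes): *Adamts3*, *Adamts7*, *Adamts8*, *Adamts18*, *Adamts20* and *Timp1*. Of the 40, 27 were lower in HFA (40.0% of all tested genes), and the median log2 fold change was −0.29 against 0.06 over all tested genes. By family the median was −0.22 for *Mmp* (11 of 14 lower), 0.25 for *Timp* (1 of 4 lower), −0.41 for *Adamts* (12 of 17 lower) and −0.15 for *Lox* (3 of 5 lower).

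*Adamts8*, a secreted protease of the same subgroup as *Adamts1* and *Adamts15*, was the one tested member whose CPM ranges did not overlap between diets (0.993% of all tested genes did not). It had 8.72, 10.1, 8.32, 4.12 and 2.69 CPM in CFA 1 to CFA 5 and 1.99, 2.33, 1.42, 2.19 and 2.29 CPM in HFA 1 to HFA 5. Every HFA library lay below every CFA library, with CFA 5 closest to them. The log2 fold change was −1.71 ± 0.36 (SE), 3.28-fold lower in HFA, with an adjusted p of 0.577 by the quasi-likelihood test (unadjusted 0.000721). The likelihood ratio test of edgeR gave an adjusted p of 0.0228 and called 1 of 40 members (0.211% of all tested genes), and DESeq2 gave 0.00889 and also called 1 of 40 (0.384%). Over all alternatives tried the adjusted p of *Adamts8* ran from 0.00889 to 0.999 and its log2 fold change from −2.24 to −1.26. The gene has low counts, 10 to 128 reads per library.

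*Adamts18*, a protease with reported roles in epithelial organs, had 34.3, 14.7, 32.1, 11.9 and 5.37 CPM in the CFA libraries and 6.42, 6.47, 7.66, 4.66 and 1.02 CPM in the HFA libraries. CFA 5 lay among the HFA values, and HFA 5 was the lowest. The log2 fold change was −1.92 ± 0.59 (adjusted p = 0.648 by the quasi-likelihood test), the largest in size among the tested members. *Adamts15*, the neighbour of *Adamts8*, averaged 48.9 ± 22.9 CPM in the CFA libraries against 23.6 ± 13.3 CPM in the HFA libraries (log2 fold change −1.06 ± 0.49, adjusted p = 0.67). All 6 basal epithelial markers were lower in HFA as well (median log2 fold change −0.96), and 7 of 8 luminal markers (median −0.16). Of all tested genes, 40.0% were lower. The part of these cells in the *Adamts* values was not tested.

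*Timp1*, the inducible inhibitor of the family, had 4.12, 6.14, 5.33, 3.61 and 1.34 CPM in the CFA libraries and 2.44, 3.28, 1.56, 1.01 and 1.53 CPM in the HFA libraries. CFA 5 lay within the HFA range and the other CFA libraries above it. The log2 fold change was −1.06 ± 0.43 (adjusted p = 0.656). The other inhibitors had small positive values: 0.26 ± 0.41 for *Timp2*, 0.41 ± 0.36 for *Timp3* and 0.24 ± 0.20 for *Timp4*, none past the threshold (adjusted p of at least 0.796).

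*Mmp3* had 90.5, 71.8, 79.8, 45.4 and 14.5 CPM in the CFA libraries and 32.1, 67.4, 39.3, 8.32 and 6.94 CPM in the HFA libraries. The ranges overlapped, with CFA 5 below HFA 1, HFA 2 and HFA 3 and CFA 4 below HFA 2. It had the lowest log2 fold change of the *Mmp* family, −0.97 ± 0.65 (adjusted p = 0.754 by the quasi-likelihood test). *Mmp9*, the gelatinase of neutrophils and macrophages as well as stroma, had the highest, 0.75 ± 0.56 (adjusted p = 0.774), from 9.55, 5.37, 12.8, 16.3 and 6.94 CPM in CFA 1 to CFA 5 and 20.4, 35.9, 20.0, 3.75 and 6.24 CPM in HFA 1 to HFA 5. HFA 1 to HFA 3 were above every CFA library, while HFA 4 was below them all. *Mmp2* did not show a shift in the mean, with 163 ± 67.0 CPM in the CFA libraries and 154 ± 114 CPM in the HFA libraries (log2 fold change −0.08 ± 0.59, adjusted p = 0.978). The study reported both *Mmp2* and *Mmp3* as higher in HFA, by sequencing with cage in its model and by qRT-PCR. It also listed *Mmp9*, *Timp2* and *Timp3* among the differentially expressed genes of its metallopeptidase activity term. None of these passed the threshold in the diet fit of all 10 libraries. The cage is not in the labels, and the reason for the difference from the study was not tested. *Mmp14* had −0.49 ± 0.38 and *Mmp15* −0.55 ± 0.34, with adjusted p of 0.778 and 0.724.

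Among the lysyl oxidases no value came near the threshold (adjusted p from 0.815 to 0.947): *Loxl3*, which acts on collagen and elastin, had the lowest log2 fold change, −0.35 ± 0.33, and *Loxl4* the highest, 0.37 ± 0.47. *Lox* itself averaged 34.3 ± 13.4 CPM in the CFA libraries and 38.0 ± 17.7 CPM in the HFA libraries. Among the procollagen-trimming enzymes, *Adamts2* had 0.34 ± 0.49 and *Adamts14* −0.30 ± 0.45, while *Adamts3* had −1.29 ± 0.50 (adjusted p = 0.655). *Adamts5*, a main aggrecan-cutting enzyme, had −0.28 ± 0.44 and *Adamts1* 0.06 ± 0.34.

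Some other members varied less between libraries than the median member. *Mmp19*, with 34.1 to 56.6 CPM in CFA and 18.4 to 48.7 CPM in HFA, had a log2 fold change of −0.18 ± 0.25 (adjusted p = 0.887 by the quasi-likelihood test), and *Mmp28*, known as epilysin, −0.27 ± 0.30 (adjusted p = 0.85) from 22.9 to 35.9 CPM in CFA and 8.59 to 33.8 CPM in HFA. *Mmp23*, another membrane-anchored enzyme, had 11.1 ± 2.16 CPM and 10.9 ± 3.5 CPM, the closest pair of means among these 3. *Timp4* had the narrowest span of all tested members, with its highest library 2.23 times its lowest, and *Adamts18* one of the widest at 33.6 times.

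Among the scarce tested members, *Mmp12* had 4.53, 4.61, 2.47, 2.17 and 1.72 CPM in CFA 1 to CFA 5 and 0.443, 12, 2.84, 0.549 and 2.10 CPM in HFA 1 to HFA 5. HFA 2 stood above all other libraries, and HFA 1 and HFA 4 below all of them. Macrophage markers (7 of 7 tested) summed to 1320 CPM in HFA 2, 597 in HFA 1 and 202 in HFA 4, but to 1590 CPM in HFA 5, and their part in the *Mmp12* values was not tested. *Adamts4*, an aggrecan-cutting enzyme like *Adamts5*, had 3.58 ± 1.53 CPM in the CFA libraries and 2.28 ± 1.72 CPM in the HFA libraries (−0.64 ± 0.53, adjusted p = 0.794). *Adamts7*, which like *Adamts12* acts on cartilage oligomeric matrix protein, had 6.04 (CFA 5) to 16.9 CPM in the CFA libraries and 3.37 (HFA 5) to 9.08 CPM in the HFA libraries. CFA 5 again lay among the HFA values, and the log2 fold change was −0.97 ± 0.34 (adjusted p = 0.655). *Adamts20*, a relative of *Adamts9*, had 11.5 and 11.6 CPM in CFA 1 and CFA 3 and 2.30 to 5.45 CPM in the other 8 libraries (−0.92 ± 0.40, adjusted p = 0.67).

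**Figure D4:**
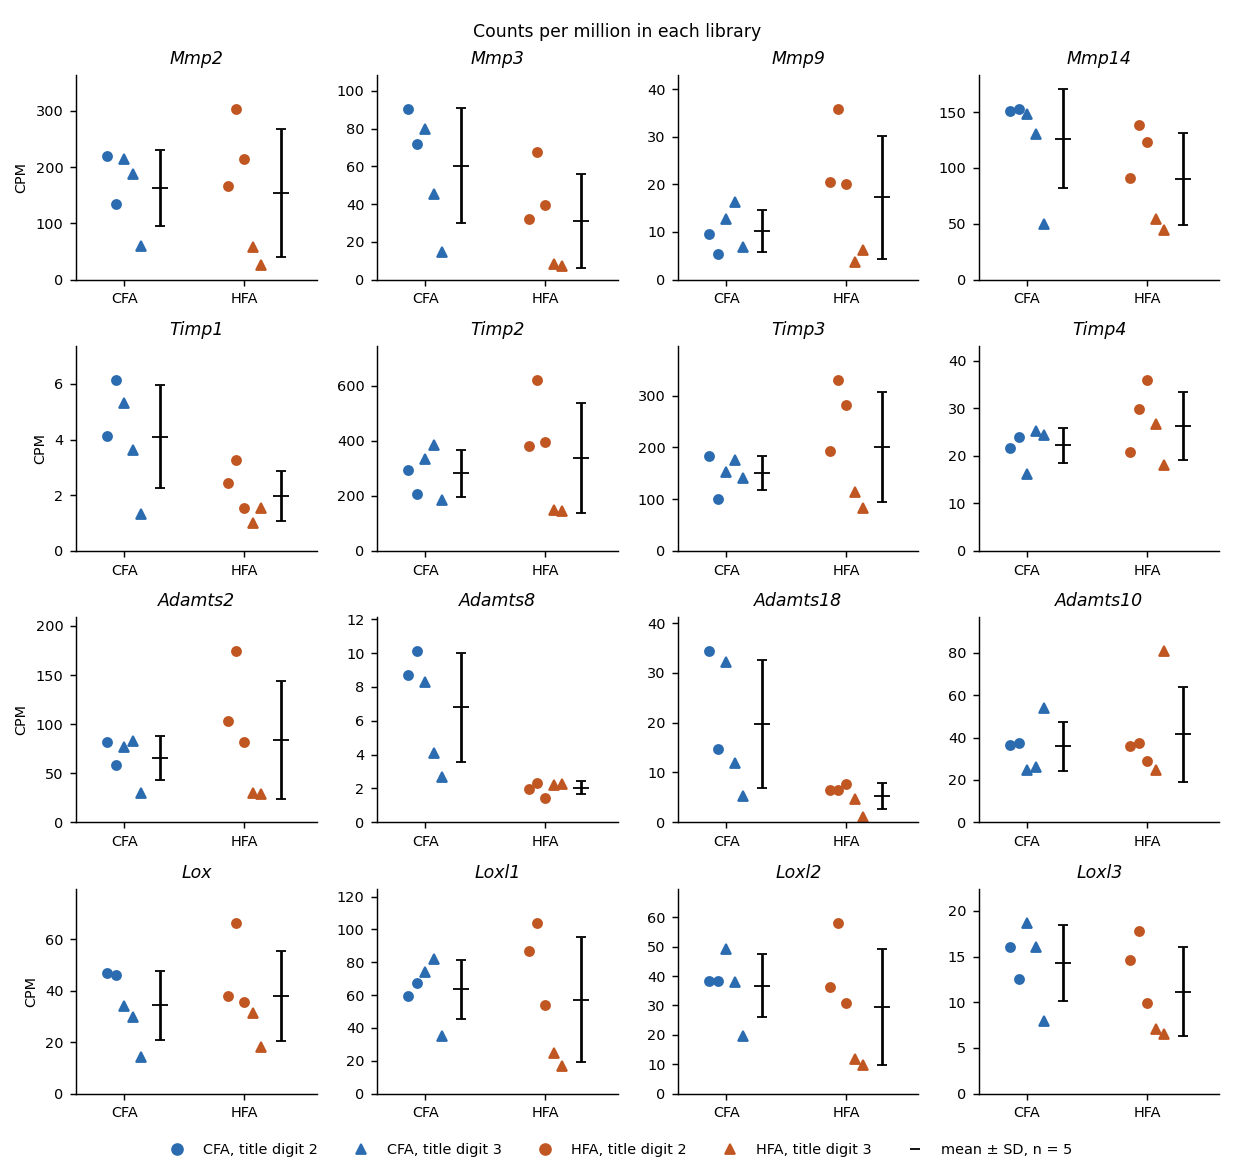
Each panel gives the CPM of a gene in the 5 CFA and 5 HFA libraries, with circles for title digit 2, triangles for digit 3, and the mean ± SD (n = 5) beside them, on axes that start at 0. *Adamts8* is the gene whose groups do not overlap, and for *Mmp2*, *Mmp3*, *Timp2*, *Loxl1* and *Loxl2* the 2 HFA triangles lie below the 3 HFA circles.

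The diet comparison was also made within each title digit. Within digit 2 (CFA 1 and CFA 2 against HFA 1 to HFA 3) HFA had the higher value for 24 of 40 members. The median there was 0.16 on the log2 scale, against 0.0165 over all genes then tested. Within digit 3 (CFA 3 to CFA 5 against HFA 4 and HFA 5) 36 of 41 were lower. Their median was −1.23, against 0.0202 over all genes then tested. *Timp2* for example had −1.13 within digit 3, and *Mmp9* −1.35 against 1.78 within digit 2. With the title digit as a term in the model the median was −0.54 (0.0538 over all tested genes) and 33 of 40 were lower. The difference of the diet effect between digits, tested as an interaction, passed for 0 of 40 members by the quasi-likelihood test (0.0% of all tested genes). At an unadjusted p under 0.05 there were 14 members (8.46% of all tested genes). All 14 were positive, and 611 of the 15610 tested genes were positive at that level. *Mmp9* had the largest support (3.02 ± 0.68, adjusted p = 0.568).

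Within digit 2 alone, 5 of 40 members (12.5%) passed the threshold of an adjusted p under 0.05, and 9.12% of all 15549 genes passed in this smaller fit. They were *Adamts8* (−2.24 ± 0.29, adjusted p = 0.0263), *Adamts18* (−1.83 ± 0.36, 0.0363), *Adamts15* (−1.05 ± 0.23, 0.0414), *Mmp15* (−0.67 ± 0.15, 0.0422) and *Mmp9* (1.78 ± 0.37, 0.0382). Without the 3 libraries that held B cell markers (CFA 2, CFA 5 and HFA 5), *Adamts3*, *Adamts8* and *Adamts18* passed, all lower in HFA, which is 3 of 40 members (7.5%) against 2.98% of all genes then tested.

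The 3 HFA libraries of title digit 2 were also compared with the 2 of digit 3, a comparison chosen because earlier results of these data had shown a difference there. No member passed an adjusted p of 0.05 by the quasi-likelihood test (0 of 40; 0.0% of all tested genes), with a smallest adjusted p of 0.275. At an unadjusted p under 0.05 there were 19 of 40 members (15.7% of all tested genes), all higher in digit 2 (6.11%). Of the 40, 36 were higher in digit 2 (44.9% of all tested genes), and the median was 1.19 on the log2 scale against −0.06 over all tested genes. All 14 *Mmp*, 4 *Timp* and 5 *Lox* genes were higher there, and 13 of the 17 *Adamts* genes. For 24 members every digit 2 library was above both digit 3 libraries (12.3% of all tested genes): 9 of 14 *Mmp*, 3 of 4 *Timp*, 7 of 17 *Adamts* and 5 of 5 *Lox* genes. By the likelihood ratio test 9 members passed (1.26% of all tested genes) and by DESeq2 12 (2.11%), all of them higher in digit 2.

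*Mmp2* had 167, 304 and 215 CPM in HFA 1 to HFA 3 and 58.6 and 26.3 CPM in HFA 4 and HFA 5. Its log2 fold change was 2.43 ± 0.62, with an adjusted p of 0.294 by the quasi-likelihood test. *Mmp3* had the largest difference of the *Mmp* family, 2.60 ± 0.67 (adjusted p = 0.294), followed by *Mmp9* with 2.34 ± 0.50 (adjusted p = 0.275). *Mmp14*, the activator of *Mmp2*, had 1.25 ± 0.42 (adjusted p = 0.31).

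The inhibitors *Timp2* and *Timp3* had higher values in digit 2, as these proteases had. *Timp2* had 379, 620 and 397 CPM in HFA 1 to HFA 3 and 147 and 145 CPM in HFA 4 and HFA 5 (1.67 ± 0.37, adjusted p = 0.275). *Timp3* had 193, 330 and 282 CPM against 114 and 83.7 CPM (1.44 ± 0.33, adjusted p = 0.275). *Timp4* differed little, 0.37 ± 0.30 (adjusted p = 0.531).

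Of the crosslinking enzymes, *Loxl1* had 86.7, 104 and 53.8 CPM in HFA 1 to HFA 3 and 24.9 and 17.1 CPM in HFA 4 and HFA 5. Its log2 fold change was 1.96 ± 0.42 (adjusted p = 0.275), and that of *Loxl2*, which acts on collagen IV, was 1.94 ± 0.42 (adjusted p = 0.275). *Loxl4* had 1.82 ± 0.48, *Loxl3* 1.06 ± 0.40 and *Lox* 0.92 ± 0.43, with adjusted p of 0.297, 0.31 and 0.328. All 5 had higher values in every digit 2 library than in either digit 3 library.

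Of the *Adamts* genes, *Adamts2* had 103, 174 and 82.0 CPM in HFA 1 to HFA 3 and 29.8 and 29.2 CPM in HFA 4 and HFA 5 (2.02 ± 0.49, adjusted p = 0.282). *Adamts12*, which cuts cartilage oligomeric matrix protein, had 2.11 ± 0.55 (adjusted p = 0.295) and *Adamts1* 1.31 ± 0.34 (adjusted p = 0.297). The genes with negative values were *Adamts6* (−1.21 ± 0.78), *Adamts10* (−0.63 ± 0.49), *Adamts8* (−0.22 ± 0.47) and *Adamts20* (−0.14 ± 0.65), with adjusted p of 0.436 to 0.919. *Adamts10*, which binds fibrillin microfibrils, had 80.6 CPM in HFA 5, against 24.7 in HFA 4 and 24.6 to 54.0 CPM in the other 8 libraries. *Adamts6*, its closest relative, had 14.1 CPM in HFA 5 and 1.30 to 5.60 CPM in the other 9 libraries. Without HFA 5 the log2 fold change of *Adamts10* between diets was −0.21 in place of 0.22, and that of *Adamts6* −0.0016 in place of 0.76.

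**Figure D5:**
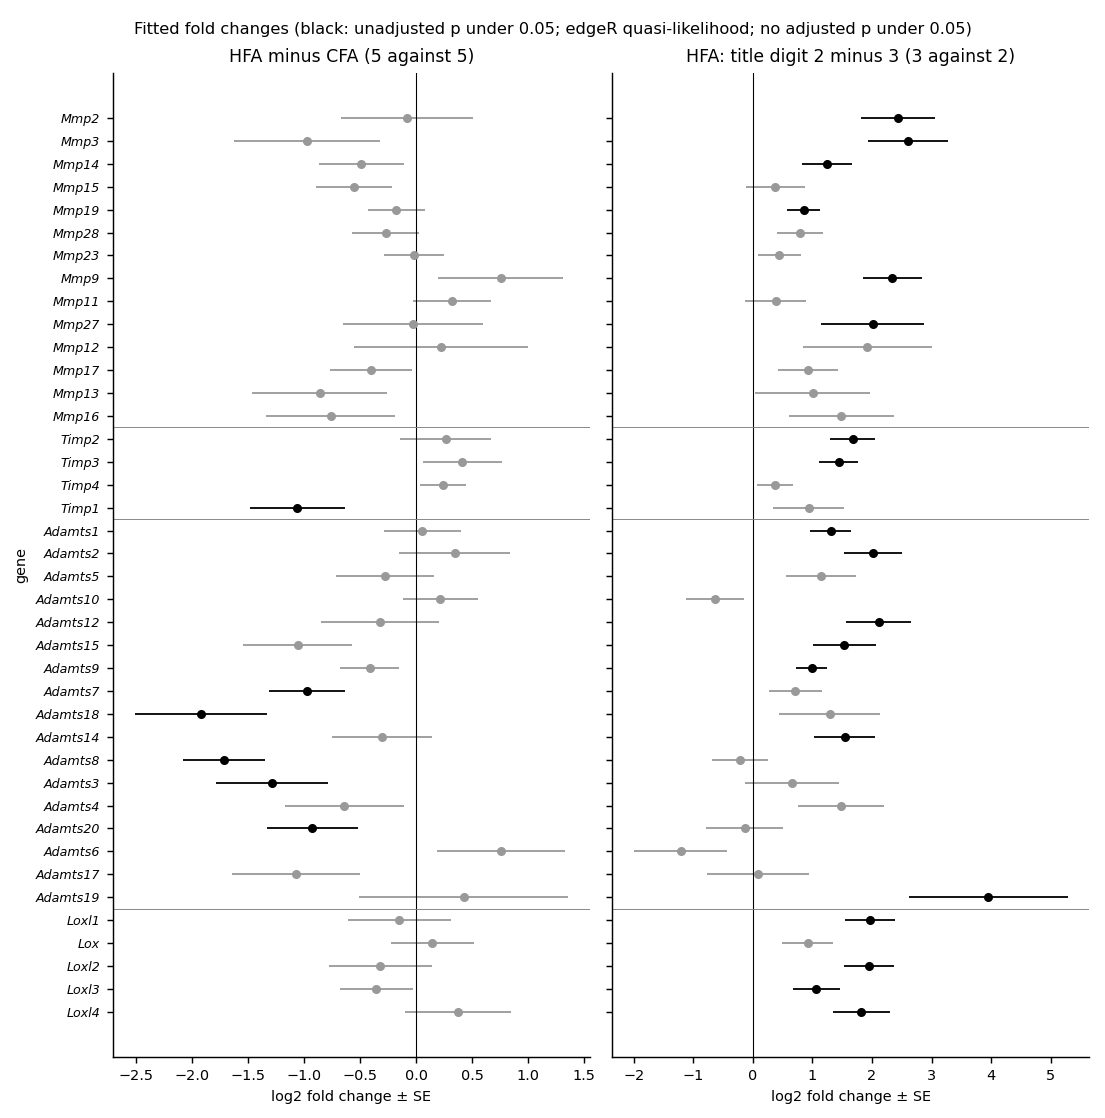
Points are log2 fold changes with their SE for the 40 tested members, HFA minus CFA on the left and HFA title digit 2 minus digit 3 on the right, with black for an unadjusted p under 0.05. On the left 6 members are black, all negative, and on the right 19, all positive; no adjusted p was under 0.05 by the quasi-likelihood test.

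The 24 genes above were counted because HFA 4 and HFA 5 both lay below the digit 2 libraries, and these are 2 libraries only. Without HFA 4, 17 of 41 members passed (41.5%), a share near that of all 15840 genes then tested (38.3%), with HFA 5 as the lone digit 3 library of HFA, assumed to vary like the other groups. Without HFA 5, 0 members passed and the median log2 fold change was 1.11, with HFA 4 as the lone digit 3 library. Without CFA 2, CFA 5 and HFA 5, which also leaves HFA 4 as the lone digit 3 library of HFA, the median was 1.09 and 22 of 40 members had an unadjusted p under 0.05 (13.4% of all genes). The fibroblast marker sum was 4160 to 7100 CPM in HFA 1 to HFA 3 and 808 to 1200 CPM in HFA 4 and HFA 5, none of the 8 markers being at 0 in all libraries. Basal epithelial sums (892 to 1020 against 160 to 468 CPM) and mast cell sums (248 to 369 against 147 to 177 CPM) were also apart. Luminal epithelial sums overlapped (1280 to 2100 and 413 to 1690 CPM). Only the fibroblast markers were used as a covariate in the 4 groups, as their mean without *Col1a1*, *Col1a2* and *Col3a1*. With it in the same 4 groups, the median of the 40 members was −0.31. Then 3 members had an unadjusted p under 0.05 (3.23% of all tested genes). The covariate itself differed between the HFA digits, so this fit cannot tell the members' difference apart from that of the markers.

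Within CFA the same contrast, CFA 1 and CFA 2 against CFA 3 to CFA 5, gave 0 of 40 members at an adjusted p under 0.05 by the quasi-likelihood test (0.0% of all tested genes) and 0 at an unadjusted p under 0.05 (2.61% of all tested genes). The median log2 fold change was 0.09 (−0.0025 over all tested genes), with 25 members higher in digit 2 (7745 of all 15610 tested genes).

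Other genes of the same processes also had mostly higher values in HFA title digit 2. Over all tested genes, 44.9% were higher in digit 2, 6.11% were higher with an unadjusted p under 0.05, and the median was −0.06. Of 28 tested genes for other pericellular proteases and their inhibitors (33 of 34 counted), 22 were higher in digit 2. An unadjusted p under 0.05 was reached by 11 of them, and the median of the list was 0.75. The most abundant, *Ctsb*, a lysosomal protease, had 0.18 ± 0.27. Of 16 tested genes for collagen maturation, 16 were higher (11 with an unadjusted p under 0.05, median 0.81), and of 24 tested substrates and elastic fibre genes, 24 were higher (17 with an unadjusted p under 0.05, median 1.62). *Sparc*, a collagen-binding matricellular protein and the most abundant of the last list, had 1.03 ± 0.41 (adjusted p = 0.31). None of these genes passed an adjusted p of 0.05 by the quasi-likelihood test. Between diets the medians of the 3 lists were 0.16, −0.13 and −0.38, against 0.06 over all tested genes. The unadjusted p was under 0.05 for 1 of 28, 3 of 16 and 3 of 24 genes (7.36% of all tested genes). The substrate list shares *Dcn* with the fibroblast markers and *Vwf* with the endothelial markers.

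The 10 members that did not pass the filter on low counts were *Mmp1b*, *Mmp7*, *Mmp8*, *Mmp10*, *Mmp20*, *Mmp21*, *Mmp24*, *Mmp25*, *Adamts13* and *Adamts16*. *Mmp10* and *Mmp20*, the latter an enzyme of tooth enamel, had 0 reads in every library, which allows up to 0.191 to 0.426 CPM (3 counts per library, counting error only). *Mmp1b* had 1 read in all, *Mmp21* 4, *Mmp24* 8, *Mmp8*, the collagenase of neutrophils, 10, *Mmp7* 15, *Adamts16* 25 and *Adamts13* 42. *Mmp25*, a membrane-anchored enzyme known from leukocytes, had the most, 264 reads: 9.10 CPM in HFA 5, 4.40 in CFA 5 and 1.97 in CFA 2, and 0.183 to 1.55 CPM in the other 7 libraries. *Adamts13*, which cuts von Willebrand factor, was also highest in HFA 5 (1.59 CPM) and CFA 5 (0.896 CPM). These are the libraries with the highest B cell marker sums, and the part of those cells in the values was not tested.

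Some members share exon sequence with other genes, and the strand setting of the counting is not given in the sources used here. *Timp1*, *Timp3* and *Timp4* lie inside *Syn1*, *Syn3* and *Syn2* on the opposite strand. Of their exon bases, 1733 bp of *Timp3* overlap *Syn3* exon, 90 bp of *Timp4* overlap *Syn2* exon, and 0 bp of *Timp1* are shared. *Mmp19*, *Loxl3* and *Adamts9* share 789, 535 and 1805 bp of exon with genes on the opposite strand. Reads there cannot be assigned to one gene without strand, so the levels of these genes are less certain.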

How the data were processed

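Mammary gland RNA of 5 CFA and 5 HFA mice was analysed, 1 library per mouse, grouped by the treatment label. The authors aligned paired reads to GRCm38 with TopHat2 2.0.14 and Bowtie2 2.2.5 and counted them on Ensembl genes with HTSeq 0.6.1, and they had removed a sample with poor reverse reads and an outlying sample. The deposited values are raw whole-number counts per gene, without normalization. Reads with more than 1 alignment (28.8% to 33.9% of the counted lines), on no gene (3.43% to 5.47%) or on more than 1 gene (3.52% to 4.29%) are not in these counts. The library kit does not mark strand.

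Symbols, exons and positions came from GENCODE M21 (GRCm38), with 46488 of 46983 identifiers matched. *Mmp1a* is a polymorphic pseudogene there and was not a member. In R 4.3.3, edgeR 4.0.16 was run on all genes with filterByExpr, TMM scaling and the quasi-likelihood test, and p-values were adjusted over 15610 genes (Benjamini-Hochberg, threshold 0.05). The diet fit had no covariate, since the cage in the study's model is not in the labels, and the title digits were compared in a fit with 4 groups of diet and digit. A standard error (SE) is the size of the fold change on the log2 scale over the root of F. CPM is after TMM scaling, log2 CPM has a prior count of 2, and RPKM is CPM per kb of merged exon. Libraries were not copies (highest Pearson correlation over genes 0.996 among 45 pairs), and SDs are between mice. Counts carry no molecular identifiers.

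Members named are the 4 most abundant per length of each family, all *Timp* and *Lox* genes, those whose diets did not overlap, those that the study names, and the highest and lowest fold change of each family (21 genes); *Adamts3*, *Adamts4*, *Adamts7*, *Adamts9*, *Adamts12*, *Adamts14*, *Adamts15*, *Adamts20*, *Mmp12*, *Mmp13*, *Mmp19*, *Mmp23*, *Mmp27* and *Mmp28* were added after their values were seen. The members and lists were chosen with earlier results of these data known. Alternatives were other scalings (RLE, upper quartile), other filters, the likelihood ratio and robust tests, DESeq2 1.42.0, limma 3.58.1 voom without and with quality weights, the title digit as a term or a split, covariates of fibroblast or of B and T cell markers, a block by the last title digits (8 libraries), and each library left out. Added after seeing the data were the fit and the spread without the 3 libraries with B cell markers, the spread with each library left out, and the fibroblast covariate in the 4 groups. The fibroblast covariate, in either fit, left out *Col1a1*, *Col1a2* and *Col3a1*.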

Additional observations from a re-analysis of the deposited data

Results flagged for a closer look

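Among 42 groups of 5 libraries (21 named members in 2 diets), 3 held a library whose gap to its nearest neighbour was over 0.71 of the whole range of the group, and chance alone gives such a gap in about 1 in 20 groups. *Adamts10* had 80.6 CPM in HFA 5, a gap of 0.77 of the range, with the other HFA libraries at 24.7 to 37.5 CPM. *Adamts6* had 14.1 CPM in HFA 5, a gap of 0.765 of the range, with the others at 1.99 to 4.83 CPM. *Mmp14* had 49.3 CPM in CFA 5, a gap of 0.779 of the range, with the other CFA libraries at 130 to 153 CPM. HFA 5 and CFA 5 are also the 2 libraries with the highest B cell marker sums (2380 and 800 CPM), and the part of this in the flagged values was not tested.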

How the results depend on the processing

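Between diets, the count of members past the threshold was 0 with other scalings, filters, the robust test and limma voom, 1 by the likelihood ratio test and DESeq2, 1 by voom with quality weights (2.5% of members, 6.64% of all genes), 5 within title digit 2 (12.5% and 9.12%) and 3 without the libraries with B cell markers (7.5% and 2.98%). The count at an unadjusted p under 0.05 was 6, but 3 by limma voom (7.11% of all genes), 10 with the fibroblast covariate (11.3%) and 12 with the B and T cell covariate (14.8%). It was 17 within digit 2 (30.7%), 14 within digit 3 (3.07%), and 3 to 8 with a library left out (3.5% to 25.8% of all genes). The median of −0.29 was −1.23 within digit 3, 0.16 within digit 2, −0.54 with the digit as a term, −0.55 without HFA 2, −0.12 without HFA 4 and −0.13 without HFA 5. Over all genes the median in these fits ran from −0.0458 (without HFA 5) to 0.075 (without HFA 2). The replicate block by the last title digits (8 libraries, digits that the labels do not call replicates) gave 0 members past the threshold. It gave 8 at an unadjusted p under 0.05 (6.77% of all genes) and a median of −0.46 (0.0114 over all genes).

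Between the title digits of HFA, 9 members passed by the likelihood ratio test, 12 by DESeq2, and 0 to 17 with a library left out, 17 only without HFA 4 (41.5% of members, 38.3% of all genes). The count of 19 at an unadjusted p under 0.05 was 4 by voom with quality weights (1.26% of all genes) and 3 with the fibroblast covariate (3.23%). With this covariate the median of 1.19 became −0.31. All 8 fibroblast markers were themselves higher in HFA digit 2, so that fit cannot tell their difference apart from that of the members. The interaction passed for 1 member by the likelihood ratio test (0.199% of all genes) and for 1 by DESeq2 (0.416%). It passed for 0 members when any of CFA 3 to CFA 5 or HFA 1 to HFA 3 was left out. Leaving out another library leaves a lone library in a group. The median interaction of 1.08 was 1.43 without HFA 4 and 0.94 without HFA 5. Causes were not tested.

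Of the 21 named members, 6 kept the sign of the diet log2 fold change under every alternative: *Adamts8*, *Adamts18*, *Mmp3*, *Mmp14*, *Mmp15* and *Timp1*. The sign turned within digit 3 for *Adamts1* (−1.02), *Adamts2* (−1.18), *Lox* (−0.16), *Loxl4* (−1.21), *Mmp9* (−1.35), *Timp2* (−1.13), *Timp3* (−0.74) and *Timp4* (−0.048), and within digit 2 for *Adamts5* (0.43), *Adamts10* (−0.088), *Loxl1* (0.40), *Loxl2* (0.16), *Loxl3* (0.0094) and *Mmp2* (0.39). With the title digit as a term it turned for *Adamts1* (−0.18), *Adamts2* (−0.16), *Lox* (−0.035) and *Timp2* (−0.078), and with the B and T cell covariate for *Adamts1* (−0.21) and *Lox* (−0.020). *Adamts1* also had −0.13 by limma voom and −0.19 with the replicate block, and *Loxl1* 0.048 by voom with quality weights.

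With a library left out, the value ran from −0.10 to 0.24 for *Adamts1*, −0.21 to 0.42 for *Adamts10*, −0.11 to 0.56 for *Adamts2*, −0.0016 to 1.04 for *Adamts6*, −0.15 to 0.29 for *Lox*, −0.48 to 0.054 for *Loxl1*, −0.055 to 0.57 for *Loxl4*, −0.48 to 0.16 for *Mmp2* and −0.076 to 0.45 for *Timp2*; the low end came without HFA 2 for all of them except *Adamts1* (HFA 1), *Adamts6* and *Adamts10* (HFA 5). For *Loxl1* and *Mmp2*, whose main values were negative, the sign turned at the high end, which came without HFA 5. With depths of 7672199 to 14829291 reads, 3 counts correspond to 0.191 to 0.426 CPM, which limits the members at low counts.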
